A study of Mus musculus with 2 samples.

Results

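Muscle microRNAs (miRNAs) were followed here in mouse limb tissue at embryonic day 10.5, through the 8 genes Mir206, Mir133b, Mir208a, Mir208b, Mir499, Mir1a-1, Mir133a-1 and Mir133a-2, out of 1973 miRNA genes counted. They were chosen by name, as the genes of the classical skeletal and heart muscle miRNAs, and each was found by its Ensembl identifier in the tables of both libraries. The tissue was limb of the B6NCrl strain with no other genotype or treatment given, pooled from both sexes, 69 embryos for replicate 1 and 51 for replicate 2. These 2 small-RNA libraries form 1 group, so there was no contrast between conditions, and the values below compare genes with each other and one pool with the other. The labels call them biological replicates. Each library is a pool, so variation from embryo to embryo was not measured, and a difference between the pools cannot be told apart from one in dissection or library preparation.

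Muscle miRNAs are made from a few small families. Mir1a and Mir133a genes lie in pairs, with one hairpin of each family on the same transcript, and are active in skeletal and heart muscle, while the Mir206-Mir133b pair is a skeletal muscle locus switched on by myogenic factors as muscle precursors differentiate. Mir208a, Mir208b and Mir499 lie inside myosin heavy chain genes and are processed from the introns of those transcripts. Mir208a is thus known from heart, and Mir208b and Mir499 from heart and slow skeletal muscle. The early limb bud is mostly mesenchyme under an ectodermal sheet, and muscle precursors enter it from the somites.

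The sequences show which members can be told apart by a short read. RefSeq mature sequences on GRCm38.p6 were found for 6 of the 8 members, and the following are written 5′ to 3′ with the seed, bases 2 to 8, in capitals. They are shown because the seed sets the target family and the remaining bases decide whether a read has 1 place in the genome.
miR-206-3p: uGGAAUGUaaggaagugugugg
miR-206-5p: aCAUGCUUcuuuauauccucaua
miR-1a-1-5p: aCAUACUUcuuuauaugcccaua
miR-133b-3p: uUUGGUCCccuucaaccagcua
miR-208a-3p: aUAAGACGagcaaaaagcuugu
miR-208b-3p: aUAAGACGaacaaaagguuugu
miR-499-5p: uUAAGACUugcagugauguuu

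The miRNAs of the Myh6 and Myh7 introns are seed twins: miR-208a-3p and miR-208b-3p share the seed UAAGACG, which no other mature sequence compared here has. They match at 19 of 22 bases and differ by the substitutions G10A, A16G and C18U, counted from the 5′ end of miR-208a-3p. A full-length read therefore separates Mir208a from Mir208b. The seed of miR-499-5p, UAAGACU, differs from theirs in its last base alone (G8U), and beyond the seed the sequences part, with 12 of 21 bases in common between miR-208a-3p and miR-499-5p. On the 5′ arm, miR-206-5p and miR-1a-1-5p match at 20 of 23 bases, with G5A, C17G and U19C. Of the mature sequences compared, miR-6349 and miR-6382 also have the seed of miR-206-3p, GGAAUGU, and their genes Mir6349 and Mir6382 had 0 counts. As background, that seed is also the one of the miR-1 family, and miR-133b-3p is nearly identical to the 3′ arm of the Mir133a genes.

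The counted unit was the whole hairpin, so reads of the 5′ and 3′ arms were added together and could not be separated. The 2 most abundant members are shown with the mature arms in capitals.
Mir206, chr1:20679010-20679082, plus strand: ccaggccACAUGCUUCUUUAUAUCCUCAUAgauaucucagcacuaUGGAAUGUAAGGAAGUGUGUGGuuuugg
Mir208b, chr14:54975700-54975776, minus strand: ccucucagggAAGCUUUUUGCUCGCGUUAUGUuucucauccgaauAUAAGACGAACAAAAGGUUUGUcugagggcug

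The annotation of GRCm38 places these genes in 3 kinds of locus. Mir206 lies in intron 2 of the long noncoding RNA gene Gm28653, and Mir133b (chr1:20682769-20682887, plus strand), 3686 bases further on, overlaps an exon of the same gene. Mir208b lies in intron 31 of Myh7, counted in the annotated transcript with the most exons (41), and Mir208a (chr14:54949060-54949142, minus strand) in intron 29 of Myh6, counted likewise in a transcript of 39 exons, with 26557 bases between the hairpins. Mir499 (chr2:155622880-155622958, plus strand) lies in intron 19 of Myh7b. Mir1a-1 (chr2:180389048-180389124) and Mir133a-2 (chr2:180398379-180398482) are 9254 bases apart on the plus strand of chromosome 2, with no annotated host gene, and Mir133a-1 lies on chromosome 18 in an intron of Mir133a-1hg.

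Sense counts in miRNA genes came to 3581672 in replicate 1 and 3576482 in replicate 2, and CPM are counts per 1000000 of these. In all reads the libraries were less alike, with 10064833 and 7218612 reads, of which 32.3% and 18.6% were unmapped. Reads with several places in the genome were 32.3% and 31.2% of the mapped reads and were counted at no gene. The miRNA genes of the Hox clusters, which pattern the limb, were looked at beside the tissue label. The 5 listed members were all detected and summed to 181850 and 166542 CPM. With no other tissue measured here, this level cannot tell limb from other tissues. Detection meant 10 counts or more in each library, which 348 of 1973 genes (17.6%) reached. Of the 8 muscle genes 4 reached it: Mir206, Mir208b, Mir208a and Mir499. Mir133b had too few counts in replicate 1, and Mir1a-1, Mir133a-1 and Mir133a-2 had none. Intervals are 95% and cover counting error only, not variation between pools. PCR copies of 1 molecule are counted as separate reads, so the intervals may be too narrow even for counting error.

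The muscle genes that were counted were scarce. Together the 5 genes with reads held 301 counts in replicate 1, or 84.0 CPM (exact binomial interval 74.8 to 94.1), and 477 in replicate 2, or 133 CPM (122 to 146). The intervals do not overlap, and replicate 2 was 1.59-fold higher. Only Mir206 and Mir133b were higher in it (100 and 375 counts in sum), while the 3 myosin intron genes were lower (201 and 102). The mean of the 2 libraries was 109 ± 34.9 CPM (SD, n = 2), for 5 genes in sum, whereas the median of a single detected gene was 136 CPM. Without Mir206 the mean of the sum was 46.4 CPM. In rank by mean CPM among the 348 detected genes, Mir206 stood at 212, Mir208b at 249, Mir208a at 306 and Mir499 at 337. In bulk tissue, few cells with much of a miRNA and many cells with little of it cannot be told apart.

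**Figure D1:**
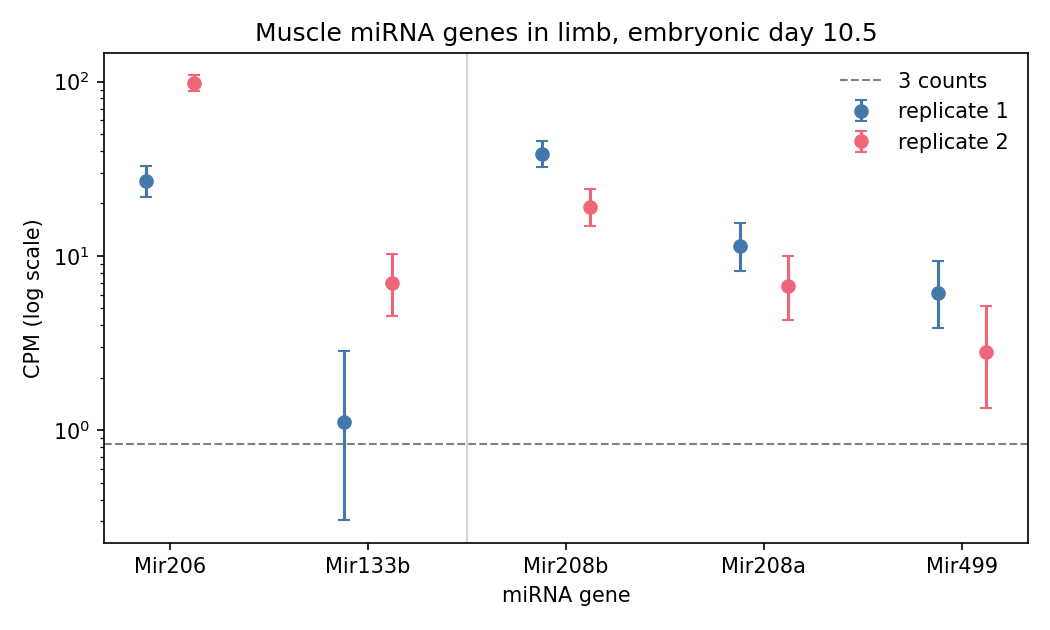
CPM on a log axis of the 5 muscle miRNA genes with reads, in replicate 1 (blue) and replicate 2 (red); bars are 95% exact binomial intervals and the dashed line is the level of 3 counts. Mir206 and Mir133b, left of the vertical line, were higher in replicate 2, and the 3 myosin intron genes were lower in it.

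Mir206, the skeletal muscle miRNA gene, differed most in absolute level between the pools. It had 96 counts in replicate 1, or 26.8 CPM (21.7 to 32.7), and 350 in replicate 2, or 97.9 CPM (87.9 to 109). The intervals lie far apart, with replicate 2 higher 3.65-fold. The log2 ratio of replicate 2 to replicate 1, with a prior count of 1, was 1.86, and the exact conditional binomial interval of the counts was 1.54 to 2.21. The mean of 62.3 ± 50.3 CPM (SD, n = 2) thus stands for a pair of unlike values.

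Mir133b, the other hairpin of that locus, was much scarcer and went the same way. It had 4 counts in replicate 1, or 1.12 CPM (0.304 to 2.86), near the level of 3 counts (0.838 CPM), and 25 in replicate 2, or 6.99 CPM (4.52 to 10.3). Its log2 ratio was 2.38 with a counting interval of 1.11 to 4.63. Because its 3′ arm is nearly that of the Mir133a genes, reads that fit both were counted at neither, and how many were lost was not tested. Within the locus, Mir206 had 24.0-fold the counts of Mir133b in replicate 1 (9.08 to 89.9) and 14.0-fold in replicate 2 (9.33 to 21.9). These intervals overlap, so a change in the proportion of the paired hairpins between the pools was not detectable at this depth.

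The myosin intron genes were lower in replicate 2, and a shift in their proportions to each other was not detectable. Mir208b, in the gene of the slow and fetal heart myosin Myh7, led them with 138 counts in replicate 1, or 38.5 CPM (32.4 to 45.5), and 68 in replicate 2, or 19.0 CPM (14.8 to 24.1). These intervals do not overlap, and the log2 ratio was -1.01 (-1.46 to -0.59). Mir208a, in the gene of the alpha heart myosin Myh6, had 41 counts, or 11.5 CPM (8.22 to 15.5), and 24 counts, or 6.71 CPM (4.30 to 9.99), with a log2 ratio of -0.75 and an interval (-1.56 to -0.0094) that ends just below 0. Mir499, in Myh7b, had 22 counts, or 6.14 CPM (3.85 to 9.30), and 10 counts, or 2.80 CPM (1.34 to 5.14), and its log2 ratio of -1.06 had an interval (-2.38 to 0.0025) that reached 0. For Mir208a and Mir499 the single-library intervals overlap, and of the 3 genes only Mir208b had a ratio interval that left out 0 under each scaling tried. That of Mir208a included 0 under all 4 other scalings (upper end 0.20 to 0.47). The 3 genes together had 201 and 102 counts, a log2 ratio of -0.97 (-1.33 to -0.63), which was -0.49 when scaled to all reads of each library, unmapped ones included.

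Among the myosin intron genes the order was Mir208b, then Mir208a, then Mir499, in both libraries. Mir208b held 68.7% of their counts in replicate 1 (61.8 to 75.0) and 66.7% in replicate 2 (56.6 to 75.7). Mir208a held 20.4% (15.1 to 26.6) and 23.5% (15.7 to 33.0), and Mir499 10.9% (6.99 to 16.1) and 9.80% (4.80 to 17.3). Each share lay within the interval of the other library. Mir208b was 3.37-fold above Mir208a in replicate 1 (2.36 to 4.89) and 2.83-fold in replicate 2 (1.76 to 4.72), which puts the Myh7 hairpin above its Myh6 seed twin in each pool. Mir208a was 1.86-fold above Mir499 (1.08 to 3.29) and 2.40-fold (1.11 to 5.62), the closest neighbours in this order, and in each library the interval lay just above 1.

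The make-up of the muscle counts differed between the pools. The Mir206-Mir133b pair held 33.2% of the 5 genes' counts in replicate 1 (27.9 to 38.9) and 78.6% in replicate 2 (74.7 to 82.2). Mir208b alone held 45.8% in replicate 1 and 14.3% in replicate 2, and Mir206 31.9% and 73.4%. Set against the myosin intron genes, the pair was at 0.498-fold their counts in replicate 1 (0.387 to 0.636) and at 3.68-fold in replicate 2 (2.95 to 4.62), log2 ratios of -1.0 and 1.87. Their mean of 0.43 ± 2.03 (SD, n = 2) has no settled sign: it is -1.0 without replicate 2 and 1.87 without replicate 1. These ratios are taken within a library and do not depend on how the libraries are scaled.

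**Figure D2:**
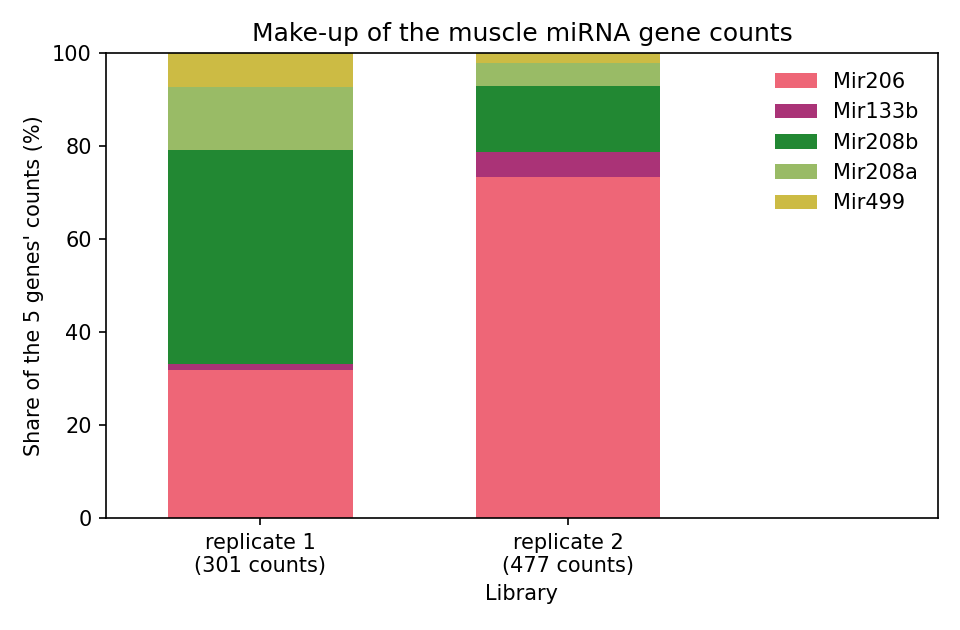
Stacked bars of each gene's share, in percent, of the counts of the 5 muscle miRNA genes with reads, 1 bar per library, with that library's total of these counts under the bar. Mir206 makes up 31.9% of the replicate 1 bar and 73.4% of the replicate 2 bar.

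Seen across all genes, the Mir206-Mir133b pair stood near the upper end of the differences between the pools and the myosin intron genes well inside them. Of 360 genes with a mean of at least 10 counts, 8 (2.22%) were over 2-fold higher in replicate 2 and 46 (12.8%) over 2-fold lower, with a median log2 ratio of -0.29. Mir206 and Mir133b were 2 of those 8, at rank 3 and rank 2 from the highest ratio. Mir133b reached the mean of 10 only through its replicate 2 count, and so had to differ. Mir208b and Mir499 were 2 of the 46 lower genes, just past 2-fold, at rank 46 and rank 42 from the lowest ratio, and Mir208a stood at rank 79. With edgeR's TMM factors, which raise every log2 ratio by 0.29, 12 genes were higher and 27 lower by over 2-fold, Mir206 and Mir133b were still among the higher ones, and none of the 3 myosin intron genes was over 2-fold lower, with log2 ratios of -0.72 for Mir208b, -0.46 for Mir208a and -0.77 for Mir499. Every other scaling tried raises all log2 ratios, by 0.21 to 0.48, so those of Mir206 and Mir133b could not change sign. The 3 myosin intron ratios lay further below 0 than the largest of these shifts, so they could not change sign either. The median log2 ratio of the 5 genes was -0.75, the value of Mir208a, beside -0.29 for the 360 genes. The sum of the 5 genes had a log2 ratio of 0.66, so they had no common direction. With 2 libraries the smallest two-sided exact sign-flip p is 0.5, so no test of a difference between them is given.

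**Figure D3:**
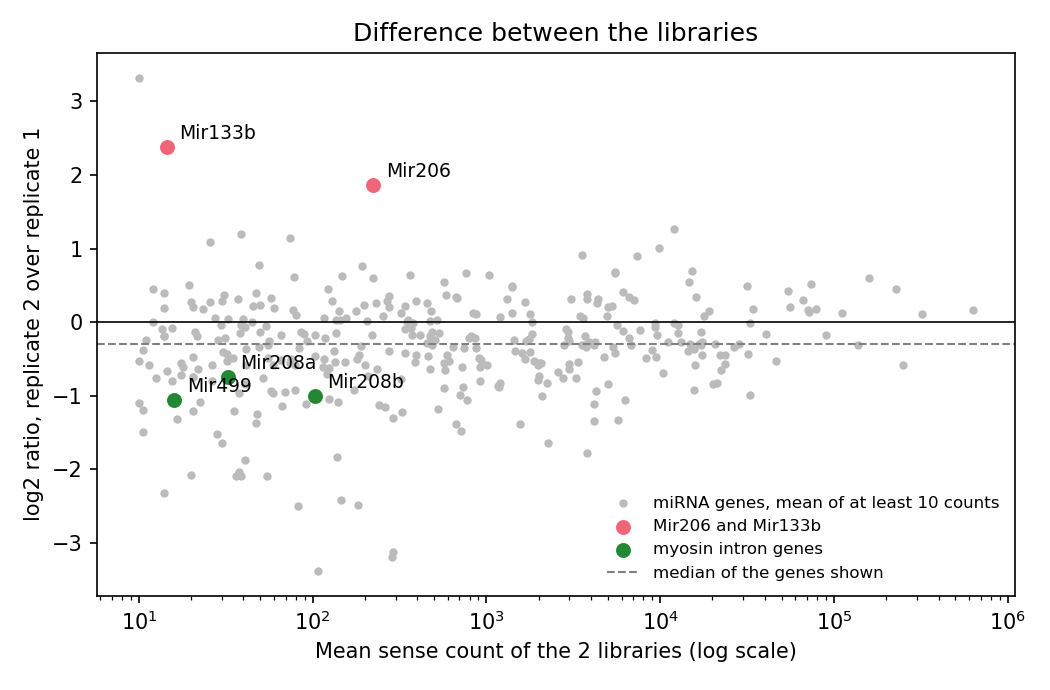
Log2 ratio of replicate 2 to replicate 1 (prior count of 1) against the mean sense count on a log axis, for the 360 miRNA genes with a mean of at least 10 counts; the dashed line is their median, -0.29. Mir206 and Mir133b (red) lie at the top of the cloud and the 3 myosin intron genes (green) below that median.

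The marker lists of other cell types are given beside the muscle genes, and their part in the muscle result was not tested. Of the 360 genes, 247 were lower in replicate 2 with CPM as used here and 181 with TMM factors, so the direction of a small difference rests on the scaling. The markers of cartilage, Mir140 and Mir455, summed to 2843 and 5461 CPM in replicates 1 and 2, and Mir140 alone was the higher one in replicate 2. All 6 mesenchyme markers were higher in replicate 2, with sums of 23036 and 28037 CPM. The 4 other scalings, added after seeing the data, each raise every log2 ratio, by 0.21 to 0.48. Sums higher in replicate 2, as those of cartilage and mesenchyme, therefore could not change direction under them. The sum of the 3 erythroid markers was lower (480 and 269 CPM), as was the liver gene Mir122 (24.9 and 5.59 CPM). Their log2 ratios of -0.84 and -2.15 lay further below 0 than the largest shift, so they could not change direction either. Endothelium (26707 and 23683 CPM, 1 gene), epithelium (12334 and 10775 CPM, 7 genes) and leukocytes (731 and 611 CPM, 3 genes, with Mir142 not analysed here) had log2 ratios of -0.17, -0.20 and -0.26, above the median of all genes (-0.29), and with TMM factors they were 0.12, 0.09 and 0.03. No direction is read from these 3 lists. Of the 6 neural genes analysed, 3 were at 0, and the sum (81.3 and 124 CPM) was nearly all Mir137 (79.0 and 123 CPM), while Mir9-3 and Mir9-2 had fewer counts in replicate 2 (7 and 5, 1 and 0). The Mir206-Mir133b sum (27.9 and 105 CPM) was higher in the library with the higher cartilage, mesenchyme and neural sums. Of these, the cartilage sum was higher through Mir140 alone and the neural sum through Mir137. The myosin intron sum (56.1 and 28.5 CPM) was higher in the library with the higher erythroid and liver levels. With TMM factors, 1 of the 3 erythroid markers was higher in replicate 2. With 2 libraries each list is higher in 1 of them, so a shared direction ties no list to another.

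**Figure D4:**
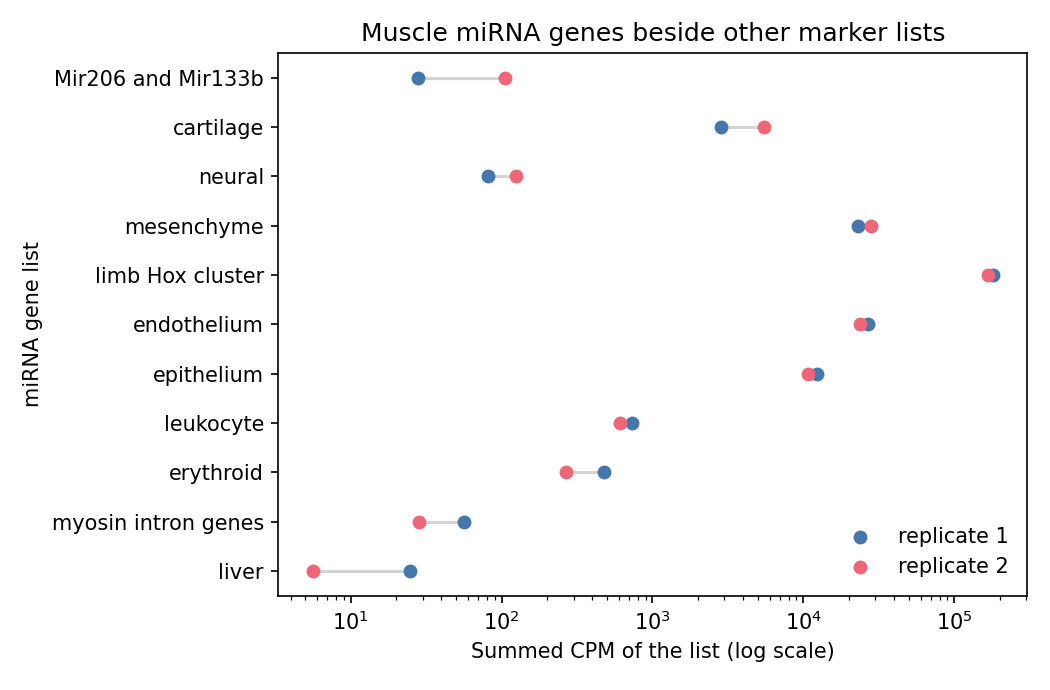
Summed CPM on a log axis in replicate 1 (blue) and replicate 2 (red) for the 2 sets of muscle miRNA genes and 9 marker lists, ordered by their ratio between the libraries. The Mir206 and Mir133b sum has the widest gap towards replicate 2, and Mir122, the only liver gene, the widest towards replicate 1.

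No uniquely placed read was found for the genes whose mature form, by general knowledge not checked on a genome here, has several loci. Mir1a-1, Mir133a-1 and Mir133a-2 had 0 sense and 0 antisense counts in both libraries. For uniquely placed reads, 0 counts leave room for a level of 0.838 CPM in the first library and 0.839 in the second, the worth of 3 counts, and the two-sided exact interval used above reaches 1.03 CPM in each. If their mature forms do lie at several loci, this sets no bound on miR-1a or miR-133a themselves, because a read that fits several loci was given to none of them. The antisense count was also 0 at each of the 5 members with reads. Mir1b, from the wider list below, overlaps Mir1a-2 on the opposite strand and had 14 and 9 sense counts, with 2 and 0 on the antisense strand. Mir1a-2 itself was not analysed here.

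The wider muscle biology list holds genes with a part in muscle biology, most of them not restricted to muscle. Mir1a-2 and Mir1b, which overlap at a muscle locus, are also on it. Of its 22 genes 18 were analysed and 14 were detected. The 4 most abundant were Mir322 at 44410 ± 12882, Mir214 at 18552 ± 2773, Mir431 at 5914 ± 2325 and Mir181a-1 at 1711 ± 341 CPM (SD, n = 2). Mir322, which promotes exit from the cell cycle in myoblasts, had 35302 CPM in replicate 1 and 53519 in replicate 2. Of the 15 genes with a mean of at least 10 counts, none was over 2-fold apart between the pools in either direction, 6 were higher in replicate 2 and 9 lower, with a median log2 ratio of -0.18, beside 113 higher and 247 lower of all 360 genes and their median of -0.29. With TMM factors, 8 of the 15 were higher and 7 lower, with a median of 0.11, so the list has no direction that holds. Mir486, a muscle and red cell gene that is also among the erythroid markers, was lower in replicate 2, with 104 and 54 counts.

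The genes nearest to each detected member were found by distance in log2 CPM over the 2 libraries, which is a likeness over 2 points. For Mir206 they were Mir452 (143 and 244 counts), Mir181b-1 (177 and 267) and Mir152 (116 and 179), at distances of 0.77 to 1.00. For Mir208b they were Mir30c-2 (125 and 57 counts), Mir7688 (169 and 81) and Mir132 (138 and 90), at 0.29 to 0.40. Mir208a and Mir499 had neighbours at 0.15 to 0.30, led by Mir3475 (38 and 26 counts) and Mir1934 (20 and 11).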

How the data were processed

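MiRNAs were measured by small-RNA sequencing (size range under 30 nucleotides) in 2 limb libraries. Per the deposited readme texts, the authors aligned reads to mm10 and deposited raw read counts per gene over GENCODE M4, 1 alignment per library. Which aligner, counting program and adapter trimming were used is not given in the sources used here. The tables have 3 count columns, taken from their totals as both strands, sense and antisense, and 4 rows of reads given to no gene, which were left out of CPM. Symbols came from GENCODE M21 (GRCm38, the build of mm10), which matched 1894 of 1973 identifiers. Counts come from mature-length reads, so no scaling by gene length was applied.

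From the sense counts, CPM, exact (Clopper-Pearson) binomial intervals and exact conditional binomial intervals of count ratios were computed with scipy 1.17.1 and pandas 2.3.3 under Python 3.11.15, and scaling alternatives with R 4.3.3, edgeR 4.0.16 and DESeq2 1.42.0. Log2 ratios carry a prior count of 1, their intervals none. The ratio and interval code was tested on simulated counts. The genes named are the 8 members, the 3 nearest genes of each detected member, the 4 most abundant of the wider list and marker lists. Members and lists were chosen with earlier results of these data known. Alternatives were other scalings, prior counts, count minimums, both strands, and each library alone.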

Additional observations from a re-analysis of the deposited data

How the results depend on the processing

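With 2 libraries, a value from 1 of them lies within 1 SD of the mean by construction and shows nothing about stability. The summed level of 109 CPM was 84.0 and 133 in the single libraries, 48.0 per 1000000 of all reads and 62.7 per 1000000 of mapped reads, where the larger denominators lower it, and 46.4 CPM without Mir206. Per 1000000 of all reads, the log2 ratio of replicate 2 to replicate 1 was 2.38 in place of 1.90 for the Mir206-Mir133b pair and -0.49 in place of -0.97 for the myosin intron genes. Over all 7 settings the first ran from 1.86 to 2.38 and the second from -0.97 to -0.49. The ratio of the pair to the myosin intron genes was -1.0 in replicate 1 and 1.87 in replicate 2, and that of Mir206 to Mir208b, 0.91 on average, -0.52 and 2.35. Detected members numbered 4, and 5 or 4 in a single library. Genes over 2-fold higher in replicate 2 numbered 8, and 3 at a mean of at least 100 counts and 84 with no filter. Those lower numbered 46, and 24 at that mean, 122 with no filter, and 27 with edgeR's TMM factors and with DESeq2's size factors. Of the members, 1 was higher and 1 lower at a mean of 100 counts (Mir206 and Mir208b, the 2 that reach it), and with TMM or DESeq2 scaling 0 were over 2-fold lower. No paired analysis was possible because there is 1 group. Depth limits Mir133b, Mir208a and Mir499, which had 4 to 41 counts in a library.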
